A study of Mus musculus with 18 samples.

Results

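The longest trypsin exposure of the study was set against the mildest by counting transcripts in bulk RNA of C2C12, a mouse myoblast cell line. The comparison used 6 of the 18 libraries, 3 labelled as 30 min in trypsin and 3 labelled as low trypsin, and they were chosen by those labels alone. It covered all 10075 genes with enough counts to be tested, of 25957 genes with deposited counts. The 18 libraries formed 6 groups of 3 (scraped control, 30 s, 3 min and 30 min in trypsin, low trypsin, and a protease that works in the cold). All cells were grown in DMEM with 20% fetal bovine serum and carried no engineered allele according to the labels. In the 30 min group, washed cells lay in 200 µL of 0.25% trypsin at 37 °C for 30 min. The low trypsin group had the same wash and the same volume and strength of enzyme, but the liquid was drawn off straight away and the plate stayed at 37 °C without it for 3 min. The groups therefore differed in the enzyme and in the time at 37 °C, and these cannot be told apart. Control cells, shown beside both groups, were lysed in the dish and scraped, so they differed from both in wash, incubation and harvest. The libraries of each group were labelled as lots 1 to 3. Nothing used here says whether a lot is a separate culture. Therefore p-values describe the spread among such libraries, which may be technical.

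Trypsin is a serine protease that cuts proteins after lysine and arginine, and it is used to lift adherent cells because it cleaves the adhesion receptors and matrix proteins that hold them to the dish. Loss of attachment changes the tension of the actin cytoskeleton, to which the coactivators YAP and MRTF respond. MRTF acts on its target genes through serum response factor (Srf). Cells short of amino acids or under other stress raise translation of Atf4, a bZIP activator that drives the integrated stress response. Notch receptors, which are activated by cleavage, switch on Hes genes.

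The 30 min libraries held 1608020 to 1884759 counts and 13827 to 14480 detected genes, and the low trypsin libraries 1889521 to 2158249 counts and 14692 to 15019 genes. The ranges of the groups did not overlap in either measure, and their part in the results was not tested. A level of 3 counts corresponded to 1.59 to 1.87 CPM (counts scaled to a common library total) in the 30 min group and 1.39 to 1.59 CPM in the low trypsin group, a limit that covers counting error only. Mitochondrially encoded transcripts took 5.62% to 6.61% and 6.05% to 7.09% of counts. Pseudogenes took 0.616% to 0.712% of counts after 30 min, 0.965% to 0.998% in low trypsin and 0.554% to 0.651% in control. Of the markers of the labelled cell type, 10 of 12 myoblast markers had enough counts to be tested and all 12 were detected. Of these Myf5 and Des rose and Vim fell, by amounts given with their tests below, with a median of 0.16. The 9 macrophage markers summed to 1.26 to 3.67 CPM after 30 min and 1.62 to 3.98 CPM in low trypsin, and none could be tested. Endothelial markers summed to 3.77 to 7.56 and 2.80 to 5.98 CPM, and 5 markers of each of these lists were not detected in any of the 6 libraries. Epithelial markers summed to 190.3 to 244.5 and 179 to 215 CPM, with Krt14, a keratin, at 219.9 ± 27.1 and 194 ± 17.2 CPM (SD). Neuron markers summed to 664 to 710.2 and 683 to 737 CPM, nearly all from Stmn2, a tubulin-binding protein, at 641 and 667 CPM. The list for adipocytes and smooth muscle summed to 3912 to 4039.7 and 3978 to 4145 CPM, mostly from Acta2, smooth muscle actin, at 3024 and 3216 CPM, and Adipoq and Plin1, which define adipocytes, were not detected. In these 3 lists Des alone, which is also a muscle gene, was called. The part of such cells in the results was not tested. Myod1, the transcription factor that defines the myoblast lineage, was at 52.2, 58.2 and 66.2 CPM after 30 min and at 47.8, 55.8 and 57.0 CPM in low trypsin. These values overlapped (log2 difference 0.14 ± 0.13, SE; edgeR adjusted p = 0.702).

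After 30 min, members of the integrated stress response, the Notch target Hes1, the chemokine Cxcl1, the phosphatase Dusp1, the Gadd45 family and several host genes of small nucleolar RNAs were higher than in low trypsin. Some targets of YAP and Srf, the urokinase receptor Plaur, the prostaglandin synthase Ptgs2 and some transcripts of the mitochondrial genome were lower. In all, 418 of 10075 genes differed (4.15%; edgeR quasi-likelihood test, Benjamini-Hochberg adjusted p under 0.05, called "edgeR adjusted p" from here on). Of these, 136 rose (1.35% of those tested) and 282 fell (2.8%), where "rose" and "fell" always mean 30 min relative to low trypsin. Changes of at least 2-fold were found for 20 genes that rose and 63 that fell. The libraries of both groups did not overlap for 1849 genes (18.4%). The median log2 change over all tested genes was 0.0021. Of 159 tested pseudogenes 45 fell and 4 rose, beside 2.8% and 1.35% of all tested genes. Levels are CPM scaled by edgeR's TMM factors, changes are on the log2 scale with their SE, and n is 3 libraries per group throughout. Libraries are named 30 min 1 to 3 and low 1 to 3, and where leaving out 1 of them ended a call, the libraries concerned are named with the adjusted p. In bulk libraries, fewer cells with a transcript and less of it per cell cannot be told apart.

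**Figure D1:**
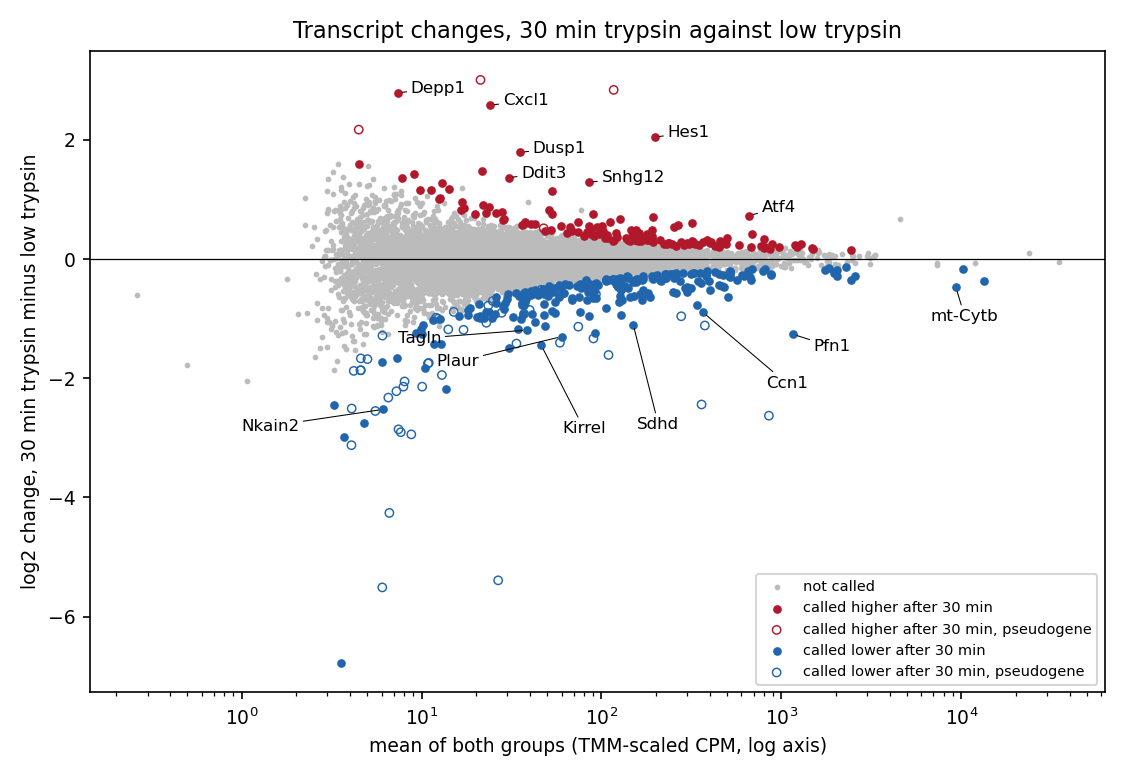
Each point is a tested gene, with the mean level of both groups (TMM-scaled CPM, log axis) on the horizontal axis and the log2 change, 30 min minus low trypsin, on the vertical axis; red marks the 136 genes that rose, blue the 282 that fell, and open circles the pseudogenes among them. The 4 pseudogenes above and 45 below the line include most of the extreme falls, while Depp1, Cxcl1 and Hes1 lead the labelled rises. Rps12-ps2 and Gm13340, unlabelled copies of other genes, rose by 3.01 and 2.84, more than Depp1.

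Both groups can be read against control, and the control libraries are the same in each case, so those comparisons are not independent of each other. After 30 min 472 genes differed from control (4.68%; 209 higher, 2.07%, and 263 lower, 2.61%), and in low trypsin 523 did (5.19%; 332 higher, 3.3%, and 191 lower, 1.9%; edgeR adjusted p under 0.05). For some genes below the 30 min group stood apart from control, and for others low trypsin did.

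Hes1, the repressor induced by Notch signalling (chr16:30064384-30067796, plus strand, GRCm38), had the smallest p of all 10075 genes. It was at 332, 335 and 291 CPM in the 30 min libraries and at 81.7, 70.4 and 79.4 CPM in low trypsin. Every 30 min library lay far above every low trypsin library. The log2 change was 2.05 ± 0.10 (edgeR adjusted p = 3.32e-23). Scraped cells had 52.8 ± 8.7 CPM (SD), which puts the 30 min group at 2.58 ± 0.10 above control and low trypsin at 0.53 ± 0.12 above it (edgeR adjusted p = 1.82e-26 and 0.0025). Among the 15 tested genes of the Notch pathway, 3 rose (1.35% over all tested genes) and none fell, with a median of 0.15. The others were the receptors Notch3 and Notch2. Notch3 was at 25.8, 38.3 and 34.0 CPM against 19.4, 18.4 and 20.1, without overlap (log2 0.77 ± 0.20; edgeR adjusted p = 0.0131). Its call ended without 30 min 2 (adjusted p = 0.137) and without low 2 (0.0549). Notch2 rose by 0.27 ± 0.08 (edgeR adjusted p = 0.0352), with overlapping libraries, and its call ended without 30 min 1, 30 min 2, low 1 or low 2 (0.0535 to 0.320) and under DESeq2 (0.0877). Without 30 min 2 or low 2, Hes1 was the only called member. Heyl, another target of the pathway, had 6.51 ± 3.48 against 3.27 ± 2.33 CPM and did not pass (edgeR adjusted p = 0.306).

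Cxcl1, a chemokine that attracts neutrophils and a classic NF-kB target (chr5, 90891241 to 90893115, plus strand), had the largest rise after Depp1 among the genes picked by the naming rule. It was at 43.4, 40.4 and 40.3 CPM after 30 min and at 7.97, 6.498 and 6.07 CPM in low trypsin. The groups were far apart, and low trypsin overlapped the control range of 4.49 to 7.54 CPM. The change was 2.58 ± 0.25 (edgeR adjusted p = 4.26e-11). Its promoter holds a near-palindromic NF-kB site, shown here in capitals within 91 bases of RefSeq sequence (GRCm38.p6, chr5:90891134-90891224, plus strand). It begins 71 bases before the transcription start and reads as a match on both strands, with the matches overlapping.
Cxcl1: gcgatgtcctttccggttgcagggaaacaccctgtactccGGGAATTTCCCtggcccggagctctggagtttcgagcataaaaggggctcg
Such a site was present in the 250 bases before the start of 5.28% of tested genes with a promoter entry, in 9 of the 112 called higher (8.04%) and in 11 of the 175 called lower (6.29%). Of the 17 tested chemokine, cytokine and NF-kB genes, Cxcl1 alone rose and 2 fell, and the median was 0.07. Over all tested genes 1.35% rose and 2.8% fell. Ptgs2, the inducible cyclooxygenase, was at 18.2, 25.7 and 27.1 CPM after 30 min against 52.3, 42.2 and 48.1 CPM in low trypsin. All 30 min values also lay below the control range of 30.3 to 39.8 CPM. The change was -1.001 ± 0.17 (edgeR adjusted p = 4.89e-05). Ccl2, a monocyte chemokine, fell by 0.33 ± 0.09 on the log2 scale (edgeR adjusted p = 0.025). Its call held only without 30 min 1 and ended in the other 5 fits with 1 library left out (0.056 to 0.148) and under DESeq2 (0.0739).

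Dusp1, a phosphatase that switches off MAP kinases, was at 66.0, 47.7 and 51.7 CPM after 30 min and at 13.9, 11.9 and 21.02 CPM in low trypsin. Low trypsin overlapped control (13.8 ± 3.6 CPM, SD), and the 30 min libraries were all higher. The change was 1.79 ± 0.21 (edgeR adjusted p = 7.98e-09). The 15 tested feedback inhibitors of MAP kinase signalling did not move together: Dusp1 rose, Errfi1 fell, and the median was -0.03. Of all tested genes 4.15% were called. Errfi1, an inhibitor of the EGF receptor, was at 93.6, 105 and 99.6 CPM against 173, 154 and 152 CPM. Here the 30 min libraries lay near control (91.6 ± 4.4 CPM, SD), and low trypsin was raised. The change was -0.68 ± 0.10 (edgeR adjusted p = 1.33e-06). The Dusp1 promoter and 1 of the 2 Errfi1 promoters in the table hold the cAMP response element TGACGTCA, a palindrome. It was found in 3.33% of tested genes, 6 of the 112 called higher (5.36%) and 8 of the 175 called lower (4.57%). The sequences are printed because the same letters precede genes that moved in opposite directions (RefSeq, GRCm38.p6, chr17:26508568-26508655 on the minus strand and chr4:150854979-150855066 on the plus strand, element in capitals).
Dusp1: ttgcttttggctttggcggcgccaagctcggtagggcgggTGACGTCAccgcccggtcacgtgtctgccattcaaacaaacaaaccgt
Errfi1: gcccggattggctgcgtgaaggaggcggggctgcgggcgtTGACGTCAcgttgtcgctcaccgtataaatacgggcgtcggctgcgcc
The element lies 143 to 136 bases before the start of Dusp1 and 51 to 44 bases before the start of Errfi1.

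Members of the integrated stress response rose after 30 min. Of 23 tested, 6 rose (1.35% over all tested genes) and none fell. A positive change was found for 22 of 23, and the median was 0.28 against 0.0021 over all genes. Atf4 itself (chr15:80255184-80257541, plus strand) was at 835, 811 and 830.3 CPM after 30 min and at 505, 504 and 487 CPM in low trypsin. The replicates of each group were within a few percent of each other, and low trypsin lay near control (536 ± 15 CPM, SD). The change was 0.73 ± 0.05 (edgeR adjusted p = 2.72e-15). Ddit3, which encodes the proapoptotic factor CHOP, was at 53.4, 30.4 and 48.5 CPM against 12.95, 19.5 and 18.2 CPM. The groups were separate although 30 min 2 was lower than its companions. The change was 1.37 ± 0.21 (edgeR adjusted p = 5.6e-06). Its locus overlaps Mars on the opposite strand, and the strand setting of the counting is not given in the sources used here.

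Nupr1, a small stress-induced chromatin protein, was at 84.2, 65.5 and 70.0 CPM after 30 min and at 31.9, 34.7 and 32.2 CPM in low trypsin. The groups did not overlap, with a change of 1.15 ± 0.14 (edgeR adjusted p = 2.34e-08), and control lay between the groups at 43.2 ± 5.1 CPM (SD). Chac1, which degrades glutathione, had only 24, 46 and 26 counts against 11, 13 and 22. In CPM it was at 15.1, 24.1 and 16.4 against 5.48, 7.04 and 10.3, without overlap. The mean was 2.44-fold higher (edgeR adjusted p = 0.00361, and 0.0848 without 30 min 2). Ddit4, an inhibitor of mTORC1, was at 128, 116 and 94.6 CPM against 67.7, 63.9 and 69.6 CPM (log2 0.75 ± 0.12; edgeR adjusted p = 1.1e-05). Slc7a5, an amino acid transporter, rose by 0.30 ± 0.09 (edgeR adjusted p = 0.0281; 0.172 without 30 min 1, 0.0938 without low 1, 0.164 without low 2, and 0.0658 under DESeq2). Trib3, a pseudokinase of the same pathway, had 9.51 ± 2.35 against 4.48 ± 1.82 CPM and did not pass (edgeR adjusted p = 0.163). Slc7a5, Trib3 and Heyl were picked after their values were seen. Against control, after 30 min and in low trypsin respectively, the changes were 0.62 and -0.10 for Atf4, 0.96 and -0.41 for Ddit3, 0.75 and -0.40 for Nupr1, 1.92 and 0.64 for Chac1, and 0.87 and 0.12 for Ddit4. After 30 min each of these 5 passed the edgeR test against control (adjusted p from 7.35e-13 for Atf4 to 0.00108 for Ddit3). In low trypsin none did (adjusted p from 0.122 for Nupr1 to 0.728 for Ddit4).

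The promoters of Chac1, Nupr1, Atf3 and Gadd45g carry an exact amino acid response element, TGATGCAA, on the strand opposite to the gene. They are printed because the element, which Atf4 is known to bind with its partners, was found in 4 of the 112 called-higher genes with a promoter entry (3.57%), 1 of the 175 called-lower genes (0.571%), 0.619% of 7918 tested genes and 0.791% of all 32851 promoters. The sequences are RefSeq, GRCm38.p6, read along the gene from chr2:119351009-119351096 (plus strand), chr7:126625533-126625620 (minus), chr1:191183396-191183483 (minus) and chr13:51846534-51846621 (plus), with the element in capitals as TTGCATCA.
Chac1: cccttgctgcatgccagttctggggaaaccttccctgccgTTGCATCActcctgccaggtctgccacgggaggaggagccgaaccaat
Nupr1: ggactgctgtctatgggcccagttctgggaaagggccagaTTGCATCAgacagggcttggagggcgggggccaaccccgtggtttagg
Atf3: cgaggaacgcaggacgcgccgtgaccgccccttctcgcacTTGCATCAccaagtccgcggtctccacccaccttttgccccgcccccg
Gadd45g: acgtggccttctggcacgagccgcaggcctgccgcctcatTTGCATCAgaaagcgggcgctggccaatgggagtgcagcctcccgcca
The element begins 193, 110, 110 and 101 bases before the start in these genes. A match is a description of the letters, not evidence of binding. Of 32 called members searched for 5 motifs, 25 had a promoter entry and 10 held at least 1 match. The motifs, searched on both strands, were this element, the NF-kB site, the cAMP response element, the CArG box and the RBPJ motif of Notch signalling, GTGGGAA, which matched none of the 25 and 6.19% of tested genes. Hes1, Ccn2, Tagln, Ccl2, Fosl1, Ier2 and Slc7a5 had no entry. Atf4, Ddit3, Ddit4, Gadd45a and Gadd45b had an entry but no match to any of these motifs, the amino acid response element included.

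Gadd45g, a growth arrest gene that activates stress kinases, was at 248, 235 and 240.2 CPM after 30 min and at 137, 151 and 154 CPM in low trypsin. The groups stood apart with control between them (185 ± 10 CPM, SD). The change was 0.71 ± 0.08 (edgeR adjusted p = 9.14e-10). Gadd45a and Gadd45b rose as well, by 0.83 ± 0.15 and 0.56 ± 0.15 (edgeR adjusted p = 0.000115 and 0.013). Gadd45b lost its call without 30 min 1 (0.168) and without low 2 (0.0808). They were the 3 called genes of 11 tested antiproliferative genes (4.15% called over all tested genes), whose median was 0.09. Gadd45a shares its locus with an antisense transcript. Atf3, a stress-induced repressor, was near the detection limit, with 11, 12 and 11 counts against 4, 7 and 2. Its change was 1.59 ± 0.47 (edgeR adjusted p = 0.039), and the call held without low 2 but ended in the other 5 fits with 1 library left out (0.0788 to 0.213) and under DESeq2 (0.146). No p53 target passed among 18 tested (median -0.04; 1 higher and 3 lower at an unadjusted p under 0.05; 1 call without low 3).

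Depp1, a FoxO-induced regulator of autophagy, had the largest rise by the naming rule. Its counts were 21, 30 and 16 after 30 min and 4, 4 and 3 in low trypsin, or 13.2, 15.7 and 10.1 CPM against 1.99, 2.17 and 1.40 CPM. Both low trypsin and control (1.22 ± 0.22 CPM, SD) lay close to the level of 3 counts. The change was 2.79 ± 0.43 (edgeR adjusted p = 4.96e-06). Other genes among the 12 largest rises were less steady. H1f4, a linker histone with near-identical copies, was at 59.7, 22.01 and 14.5 CPM against 12.5, 10.3 and 11.2 CPM, so that 1 library carried much of the change of 1.48 ± 0.35 (edgeR adjusted p = 0.00514, 0.380 without 30 min 1 and 0.159 under DESeq2). Psmb7, a proteasome subunit whose transcript shares sequence with the neighbouring Nek6, Klhl24, an adaptor of ubiquitin ligases, and Tcim rose by 1.43 ± 0.37, 1.16 ± 0.33 and 1.03 ± 0.30 (edgeR adjusted p = 0.0143, 0.0258 and 0.0302). The call of Psmb7 ended without 30 min 1, low 2 or low 3 (0.0781 to 0.196). That of Klhl24 ended without 30 min 1, low 1 or low 3 (0.0608 to 0.328), and that of Tcim in every such fit but those without 30 min 1 or low 1 (0.103 to 0.167). Under DESeq2 the calls of Klhl24 (0.0663) and Tcim (0.106) ended as well.

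**Figure D2:**
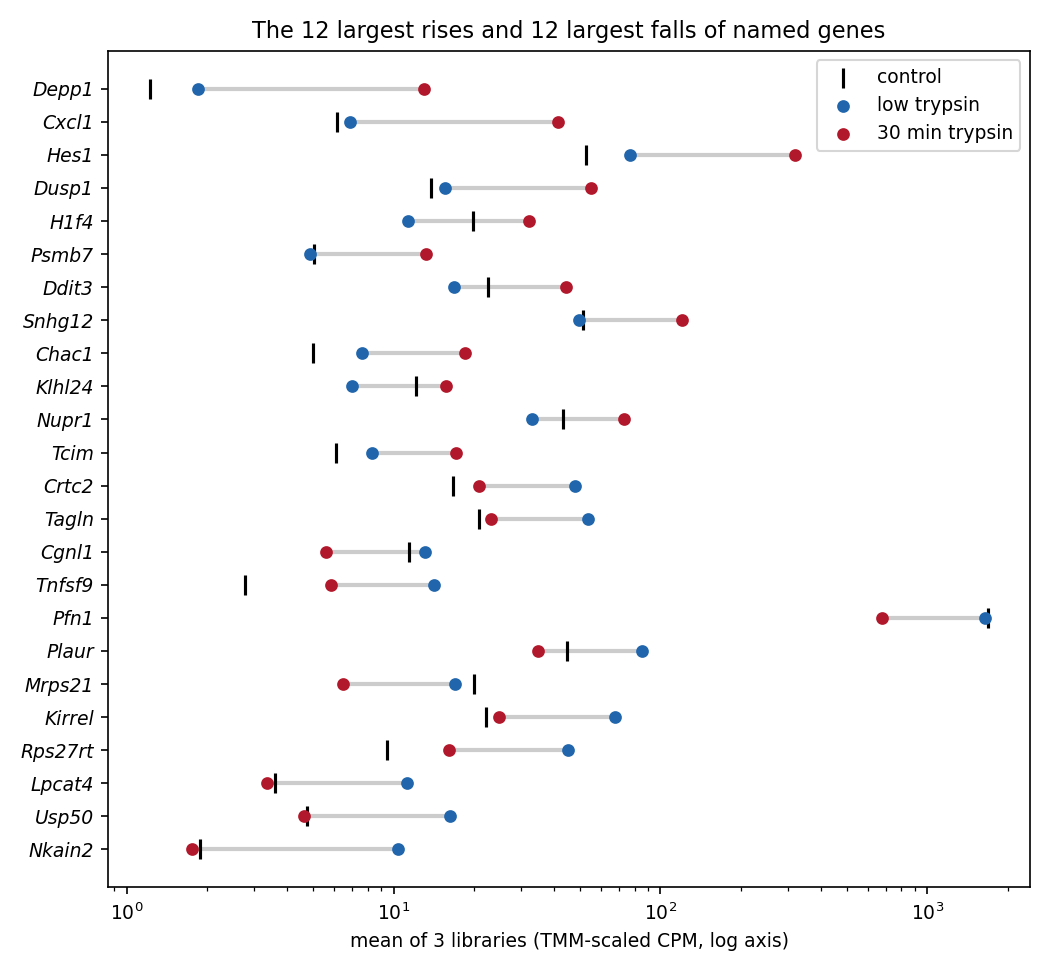
The 12 largest rises and 12 largest falls by the naming rule, with the mean level of 3 libraries (TMM-scaled CPM, log axis) in low trypsin (blue), after 30 min (red) and in control (black tick). For Hes1, Cxcl1, Dusp1 and Depp1 the control tick lies closer to low trypsin, and for Kirrel, Tagln, Usp50 and Nkain2 it lies closer to the 30 min value.

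Host genes of small nucleolar RNAs, which are spliced but little translated, and abundant long noncoding RNAs gave the largest share of rises among the lists with at least 10 tested members. Of 15 tested members 7 rose (1.35% over all tested genes) and none fell. The median of 0.43 was also the highest of these lists. At an unadjusted edgeR p under 0.05, 1 member was lower. With no filter on low counts, or with only the 6 compared libraries in the fit, 1 member was called lower. Snhg12 was at 126, 111 and 126 CPM after 30 min and at 54.8, 50.9 and 42.5 CPM in low trypsin. Low trypsin did not stand apart from control (51.4 ± 7.6 CPM, SD), and all 30 min libraries were above 110 CPM. The change was 1.29 ± 0.12 (edgeR adjusted p = 3.31e-11). Snhg5 was at 173, 148 and 142 CPM against 103, 109 and 80.4 CPM (log2 0.67 ± 0.11; edgeR adjusted p = 4.7e-05). Snhg1 rose by 0.62 ± 0.11, Zfas1 by 0.43 ± 0.09 and Gas5 by 0.39 ± 0.09 (edgeR adjusted p = 8.43e-05, 0.00132 and 0.00709; Gas5 0.0542 without 30 min 3 and 0.0921 without low 3). H19, an imprinted noncoding RNA of muscle, was at 818, 807 and 733 CPM against 554, 585 and 617 CPM (log2 0.43 ± 0.06; edgeR adjusted p = 8.99e-07). Malat1, a nuclear-retained RNA, rose by 0.56 ± 0.12 (edgeR adjusted p = 0.000924), but the 264 CPM of 30 min 3 lay below the 273 CPM of low 2. Its call ended without 30 min 2 (0.0734) and under DESeq2 (0.146). Zfas1 and Gas5 were picked after their values were seen.

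Some biosynthetic and muscle transcripts rose by smaller amounts, to be read beside the 1.35% that rose over all tested genes. Of 21 cholesterol synthesis genes and SREBP2 targets 4 rose and none fell, with a median of 0.20. Insig1, the sterol sensor that retains SREBP in the endoplasmic reticulum, was at 109, 99.6 and 97.7 CPM against 58.3, 62.3 and 87.4 CPM (log2 0.55 ± 0.12; edgeR adjusted p = 0.00256, and 0.0582 without low 1). Srebf2, the transcription factor of the pathway, rose by 0.29 ± 0.06 (edgeR adjusted p = 0.0016). Hmgcs1 and Acat2, enzymes that act before the committed steps of the pathway, rose by 0.23 ± 0.06 and 0.22 ± 0.07 (edgeR adjusted p = 0.0207 and 0.0466). Hmgcs1 lost its call without 30 min 2 (0.239), low 1 (0.0959) or low 2 (0.0945). Acat2, which has a near-identical copy, kept its call only without 30 min 2 (0.0705 to 0.180 in the other fits with 1 library left out) and lost it under DESeq2 (0.101). The list held 1 call without low 1 and 2 without low 2. Of 16 myogenic differentiation genes 2 rose and none fell, with a median of 0.25. These were Tnnt2, a troponin, and Des, the intermediate filament desmin, which rose by 0.27 ± 0.08 and 0.17 ± 0.05 (edgeR adjusted p = 0.0288 and 0.0475). No call was left without 30 min 1, low 1 or low 2 (0.103 to 0.323 for Tnnt2 and 0.122 to 0.218 for Des), and Des also lost its call without 30 min 2 (0.119) and without low 3 (0.0622). Tnnt2 also lost its call under DESeq2 (0.0657). Neither Tnnt2 nor Des was called with only the 6 compared libraries in the fit. Des also lost its call with no filter on low counts, with a replicate block and with mRNAs of 800 nt or less left out. Myf5, a determination factor of muscle precursors, was at 133, 107 and 129 CPM against 85.7, 95.8 and 96.7 CPM (log2 0.40 ± 0.12; edgeR adjusted p = 0.0313), and its call ended without 30 min 1, 30 min 3, low 1 or low 2 (0.0614 to 0.177) and under DESeq2 (0.0736). Vim, the intermediate filament vimentin, fell by 0.17 ± 0.03 on the log2 scale (edgeR adjusted p = 0.000307). Id3, a target of BMP signalling that holds back differentiation, was at 938, 861 and 882 CPM against 732, 706 and 694 CPM (log2 0.33 ± 0.05; edgeR adjusted p = 1.33e-05). It was the only called gene of 14 BMP and TGF-beta targets.

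**Figure D3:**
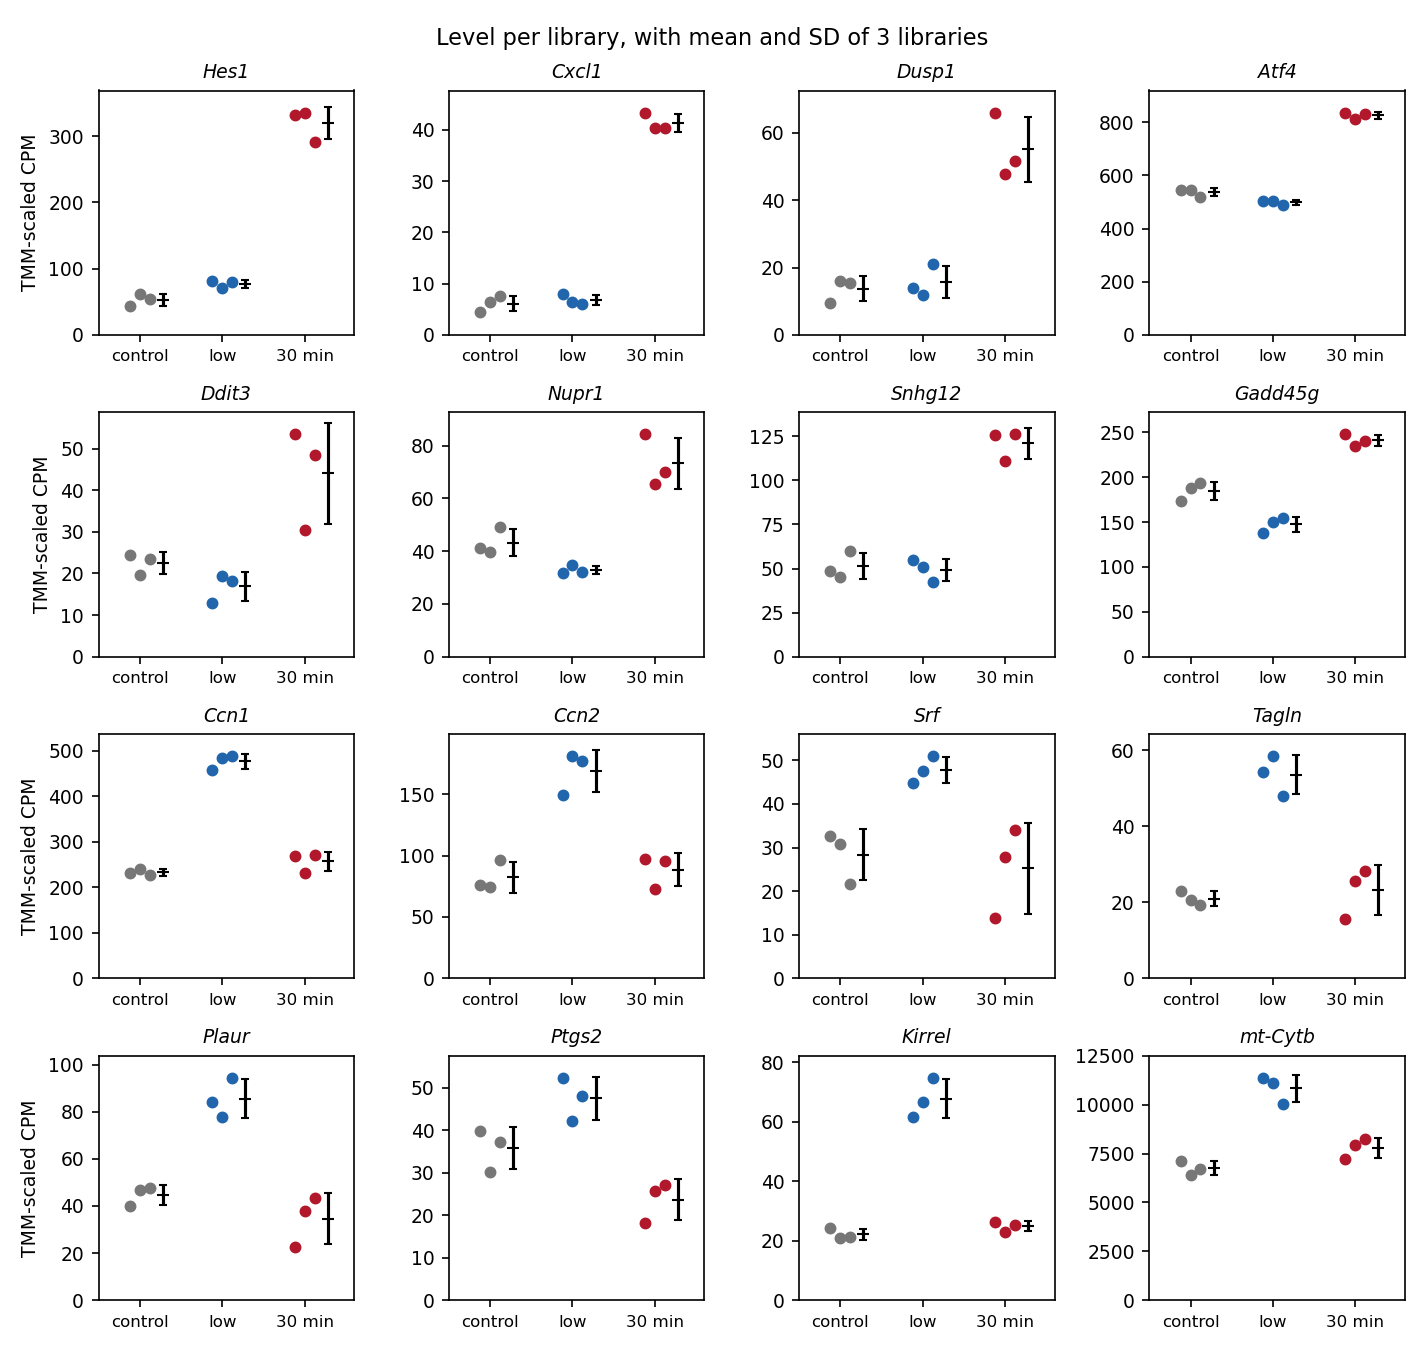
Level of 16 genes in each library of the control, low trypsin and 30 min groups (TMM-scaled CPM, axis from 0), with the mean and SD of 3 libraries beside the points. In the upper 8 panels the 30 min points lie above both other groups. In Ccn1, Ccn2, Srf, Tagln, Ptgs2, Kirrel and mt-Cytb low trypsin stands above both others. The mean of Plaur is also highest in low trypsin.

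Among the genes that fell were known targets of YAP, the coactivator that responds to cytoskeletal tension. Ccn1, a secreted matrix-associated protein and YAP target (chr3:145646976-145649981, minus strand), was at 268, 233 and 270.4 CPM after 30 min and at 459, 485 and 488 CPM in low trypsin. The groups did not overlap, and control overlapped the 30 min values (233 ± 7.6 CPM, SD). The change was -0.90 ± 0.06 (edgeR adjusted p = 1.14e-15). Against control Ccn1 rose by 1.03 ± 0.06 in low trypsin (edgeR adjusted p = 4.26e-18) and differed by 0.14 ± 0.07 after 30 min (0.319). Ccn2, its close relative, was at 97.4, 72.9 and 95.2 CPM against 149, 181 and 177 CPM, with control at 82.2 ± 12.5 CPM (SD). Its change was -0.94 ± 0.10 (edgeR adjusted p = 1.61e-09). Ankrd1, a nuclear adaptor protein of muscle, fell by 0.29 ± 0.06 and Fstl1, a secreted glycoprotein, by 0.30 ± 0.08 on the log2 scale (edgeR adjusted p = 0.00101 and 0.0229). Fstl1 lost its call without 30 min 2 (0.326), low 1 (0.0916) or low 3 (0.0978) and under DESeq2 (0.312). Together with Gadd45a, which is in the list and rose, these were the 5 called genes of 20 tested YAP/TEAD targets. The median of the list was -0.05, and the other 15 did not pass, while 4.15% of all tested genes were called.

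Srf, the transcription factor of actin genes, was itself lower after 30 min, at 13.8, 27.8 and 34.0 CPM against 44.8, 47.7 and 50.9 CPM. All 30 min libraries lay below all low trypsin libraries, and control was at 28.4 ± 5.9 CPM (SD). The change was -0.92 ± 0.19 (edgeR adjusted p = 0.000939). The Srf promoter holds a pair of CArG boxes, the motif that Srf binds, and the Actg1 promoter holds 1, while a match was found in 1.35% of tested genes, 4 of the 175 called-lower genes (2.29%) and none of the 112 called-higher genes. They are shown in capitals because Srf is known to control both genes (RefSeq, GRCm38.p6, chr17:46556175-46556284 and chr11:120348536-120348625, both minus strand).
Srf: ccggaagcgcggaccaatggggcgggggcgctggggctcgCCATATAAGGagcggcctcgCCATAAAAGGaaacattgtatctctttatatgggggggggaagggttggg
Actg1: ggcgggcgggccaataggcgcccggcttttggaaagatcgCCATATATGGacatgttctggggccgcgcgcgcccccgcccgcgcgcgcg
The boxes begin 82 and 62 bases before the start of Srf and 90 bases before that of Actg1. Of 21 tested Srf targets and actin cytoskeleton genes none rose and 5 fell (2.8% over all tested genes), with a median of -0.09. The number was 3 without 30 min 2. Among the 16 that share no long near-identical stretch with another gene, 2 fell (Pfn1 and Tpm1). Tagln, a smooth muscle actin-binding protein, was at 15.7, 25.7 and 28.4 CPM against 54.3, 58.5 and 48.1 CPM. Control (20.98 ± 1.9 CPM, SD) again overlapped the 30 min values. The change was -1.19 ± 0.18 (edgeR adjusted p = 5.51e-06), and the gene overlaps Pcsk7 on the opposite strand. Actg1, cytoplasmic gamma-actin, was at 96.8, 99.6 and 86.4 CPM against 150.4, 171 and 145 CPM (log2 -0.72 ± 0.10; edgeR adjusted p = 1.33e-06). It has 6 near-identical copies, so its counts are uncertain. Pfn1, which loads actin monomers, had scattered values of 228, 1134 and 672 CPM against 1677, 1855 and 1390.4 CPM. Control spanned 1004 to 2400.3 CPM, and the fall of 1.26 ± 0.26 on the log2 scale passed edgeR (adjusted p = 0.000952) and not DESeq2 (0.204). Tpm1 and Tpm4, which coat actin filaments, fell by 0.18 and 0.20 on the log2 scale (edgeR adjusted p = 0.0108 and 0.0154). Tpm1 lost its call without 30 min 2 (0.0863), and Tpm4 without 30 min 2, low 1 or low 2 (0.0562 to 0.143). Actb, the most abundant actin, was at 34127 ± 1811 against 35328 ± 2463 CPM (SD) and did not pass (edgeR adjusted p = 0.642). Tpm4, Fstl1 and Actb were picked after their values were seen.

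Plaur, the receptor of urokinase that focuses proteolysis at the cell surface, was at 22.6, 37.7 and 43.5 CPM after 30 min and at 84.2, 78.0 and 94.4 CPM in low trypsin. No library of the 30 min group came near the low trypsin range. The change was -1.30 ± 0.14 (edgeR adjusted p = 1.89e-09). Against control Plaur rose by 0.93 ± 0.13 in low trypsin (edgeR adjusted p = 1.23e-06), and after 30 min the difference was -0.38 ± 0.16 (0.21). F2r, the thrombin receptor, which is switched on by proteolytic cleavage, fell by 0.26 ± 0.07 on the log2 scale (edgeR adjusted p = 0.0285, and 0.0628 under DESeq2). Adamts1, a secreted metalloprotease, rose by 0.48 ± 0.14 (edgeR adjusted p = 0.0332, and 0.107 under DESeq2). The call of F2r held only without 30 min 3 (0.0524 to 0.135 in the other fits with 1 library left out), and that of Adamts1 only without 30 min 3 or low 1 (0.0556 to 0.211 in the others). They were the 3 called genes of 15 tested in pericellular proteolysis (4.15% called over all tested genes), with a median of -0.10.

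Some transcripts of adhesion receptors and matrix proteins passed the test, as did 4.15% of all tested genes. Among 21 tested adhesion receptors Bsg, a surface glycoprotein also called basigin, alone rose (0.20 ± 0.05; edgeR adjusted p = 0.0125, 0.0725 without 30 min 1 and 0.103 without low 2), none fell, and the median was 0.05. Of 29 matrix genes 3 rose and 2 fell, with a median of 0.08. Fn1, fibronectin, was at 1287, 1301 and 1287 CPM against 1132, 1041 and 1134 CPM (log2 0.23 ± 0.05; edgeR adjusted p = 0.00231). Hspg2, the basement membrane proteoglycan perlecan, and Col1a2, a collagen chain, rose by 0.29 ± 0.07 and 0.19 ± 0.05 (edgeR adjusted p = 0.00509, and 0.140 without 30 min 2, for Hspg2; 0.0166, with 0.0559 without 30 min 1 and 0.0725 without low 3, for Col1a2, which was picked after its values were seen). The glycoproteins Nid1 and Thbs1 fell by 0.41 ± 0.07 and 0.30 ± 0.06 on the log2 scale (edgeR adjusted p = 0.000107 and 0.000558).

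Several of the largest falls belonged to no list. Kirrel, an adhesion protein, was at 26.4, 23.1 and 25.2 CPM after 30 min and at 61.8, 66.6 and 74.8 CPM in low trypsin. The 30 min libraries overlapped control (22.2 ± 1.9 CPM, SD). The change was -1.45 ± 0.16 (edgeR adjusted p = 8.18e-10). Crtc2, which coactivates CREB on cAMP-responsive genes, was at 17.0, 25.2 and 20.8 CPM against 42.8, 49.8 and 50.9 CPM (log2 -1.17 ± 0.17; edgeR adjusted p = 2.83e-06), again with control near the 30 min level (16.7 ± 2.2 CPM, SD). Nkain2 had 0, 4 and 5 counts against 18, 17 and 28, and Usp50 8, 6 and 9 against 35, 31 and 31. Their changes were -2.52 ± 0.53 and -1.82 ± 0.37 (edgeR adjusted p = 0.00119 and 0.000861). Cgnl1, a protein of tight junctions, Tnfsf9, a ligand of the TNF family, and Lpcat4, a phospholipid acyltransferase, fell by 1.25 ± 0.33, 1.26 ± 0.35 and 1.67 ± 0.43 on the log2 scale (edgeR adjusted p = 0.0157, 0.0229 and 0.0133). Their calls ended without 30 min 1 or low 3 (0.0506 to 0.239 over these fits), and in further fits without 30 min 2 or low 1 (Cgnl1, 0.0923 and 0.0505), low 2 (Tnfsf9, 0.0867) and 30 min 3 (Lpcat4, 0.0733). Under DESeq2 Cgnl1 (0.0544) and Tnfsf9 (0.0767) also lost their calls. Pdk4, a FoxO target that restrains pyruvate oxidation, was at 30.8, 35.1 and 25.2 CPM against 57.8, 69.9 and 72.9 CPM (log2 -1.13 ± 0.15; edgeR adjusted p = 1.43e-07). Cited2 was the other called gene of 16 FoxO and Txnip family genes, beside 4.15% called over all tested genes. Cited2 fell by 0.22 ± 0.06 on the log2 scale (edgeR adjusted p = 0.0143; 0.0507 to 0.0834 without 30 min 1, 30 min 3, low 1 or low 2). Txnip itself had 12.6, 4.72 and 8.20 CPM against 2.99, 7.04 and 2.80 CPM, which overlapped (edgeR adjusted p = 0.266).

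Some mitochondrially encoded transcripts fell. Of 22 tested members 7 fell (2.8% over all tested genes) and none rose, and the median was -0.19. mt-Cytb, the cytochrome b of complex III (chrM:14145-15288, plus strand), was at 7232, 7944 and 8228 CPM after 30 min and at 11375, 11120.2 and 10063 CPM in low trypsin. The groups did not overlap, and control was lower still, at 6431 to 7124 CPM. The change was -0.48 ± 0.04 (edgeR adjusted p = 6.73e-12). mt-Nd1, a core subunit of complex I, was at 10888, 12111 and 12287 CPM against 15647, 15602 and 14135 CPM (log2 -0.36 ± 0.04; edgeR adjusted p = 1.6e-09). These were the called members without a near-identical nuclear copy, 2 of 14 such members. mt-Co2, a subunit of cytochrome c oxidase with such copies, was at 217, 268 and 273 CPM against 426, 436 and 429 CPM (log2 -0.77 ± 0.07; edgeR adjusted p = 1.2e-11). With the trend of each library against mRNA length removed, the median of the list was -0.03, and 7 members fell and none rose, as without that correction. With mRNAs of 800 nt or less left out, 3 of 17 fell.

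Of 76 nuclear-encoded respiratory chain subunits 13 fell and 2 rose (2.8% and 1.35% over all tested genes), with a median of -0.11. Sdhd, the membrane anchor of succinate dehydrogenase, was at 69.1, 95.4 and 122 CPM after 30 min and at 213, 191 and 210.2 CPM in low trypsin. Low trypsin stood far above both the 30 min group and control (88.4 ± 8.7 CPM, SD). The change was -1.10 ± 0.11 (edgeR adjusted p = 4.26e-11). Ndufa4 and Ndufa2, subunits bound to cytochrome c oxidase and complex I, fell by 0.58 ± 0.09 and 0.35 ± 0.08 on the log2 scale (edgeR adjusted p = 9.49e-06 and 0.00148). The number that fell was 7 with the length trend removed and 6 without low 1. It was 7 without low 2 or without 30 min 2, and 8 without 30 min 1. None rose without 30 min 1 or without low 1. Of 80 cytosolic ribosomal protein genes 12 fell and 3 rose, with a median of -0.07, but 71 of them have near-identical copies and none of the other 9 was called. Rps28, a protein of the small subunit with 7 such copies, was at 135, 147 and 156 CPM against 257, 224 and 200.0 CPM (log2 -0.63 ± 0.08; edgeR adjusted p = 3.19e-07). With the length trend removed 8 fell and 8 rose, and without low 1 the number that fell was 7. The number that rose was 1 without 30 min 1 and 5 without 30 min 2.

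Coding mRNAs of 800 nt or less took a larger share of the falls than of the tested genes. They made up 3.07% of tested coding genes, 17.8% of the coding genes that fell and 2.56% of those that rose, as 41 and 3 of 298. Their median change was -0.09, against 0.0067 for longer mRNAs. The 223 of them outside the ribosomal, respiratory chain and mitochondrially encoded lists included 20 that fell and 1 that rose. All short coding mRNAs together took 8.04% to 8.60% of counts after 30 min, 8.27% to 9.03% in low trypsin and 8.88% to 9.13% in control. Both size classes of the lists above held genes that fell. Among ribosomal protein genes 8 of 36 short mRNAs fell (median -0.11) and 4 of 44 longer ones (median -0.02). Among respiratory chain subunits 9 of 35 short mRNAs fell (median -0.16) and 4 of 41 longer ones (median -0.09). The difference between the classes was not tested.

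**Figure D4:**
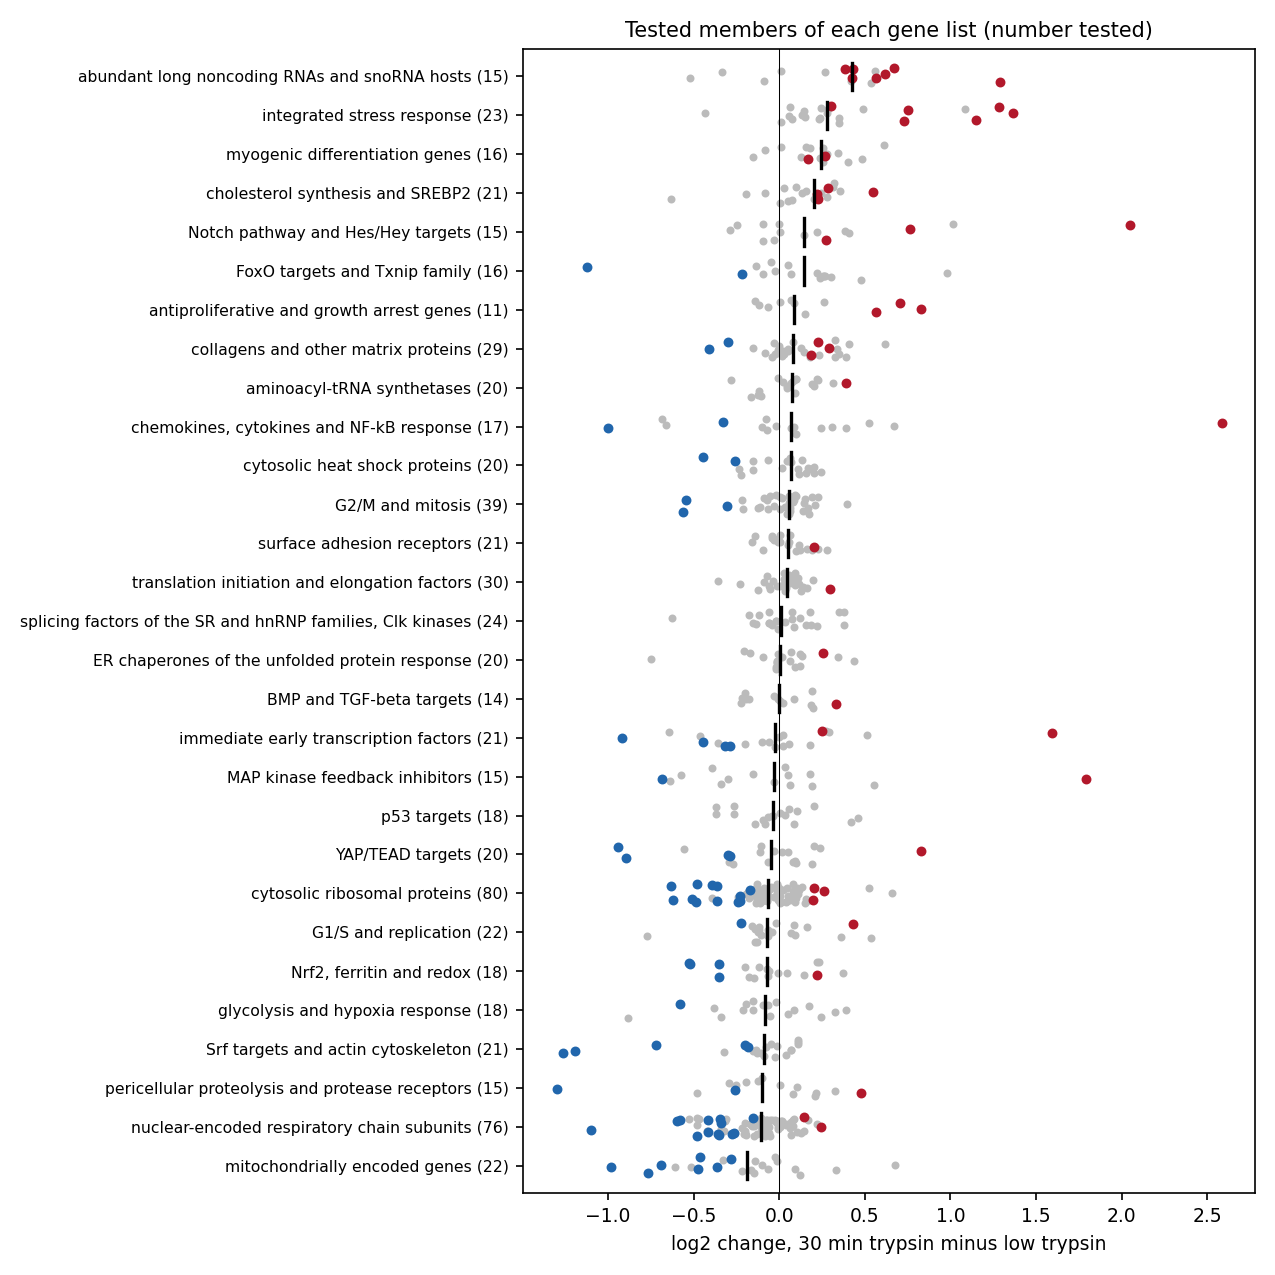
Log2 change (30 min minus low trypsin) of every tested member of each list with at least 10 tested members, ordered by the median (black bar); red members rose, blue members fell and grey ones did not pass. The noncoding RNA and integrated stress response lists stand at the top with medians of 0.43 and 0.28, and the mitochondrially encoded genes at the bottom with -0.19.

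Immediate early transcription factors, whose genes are switched on by existing proteins within minutes of a stimulus, were split. Over all tested genes 1.35% rose and 2.8% fell. Of 21 tested members 2 rose (Atf3 and Klf6) and 4 fell (Srf, Junb, Ier2 and Fosl1), with a median of -0.03. With 1 library left out, between 0 and 2 rose and between 1 and 3 fell, the fewest without 30 min 1 or low 1 (0 rose) and without 30 min 2 (1 fell). Egr1, a growth factor-induced zinc finger protein, was at 128, 126 and 102 CPM after 30 min and at 138, 120.2 and 124 CPM in low trypsin. These values overlapped (log2 -0.10 ± 0.11; edgeR adjusted p = 0.731), and both groups lay above the control range of 72.5 to 93.3 CPM. Against control Egr1 rose by 0.56 ± 0.11 after 30 min and by 0.66 ± 0.11 in low trypsin (edgeR adjusted p = 0.00082 and 2.53e-05). Junb, a component of AP-1, fell by 0.32 ± 0.08 on the log2 scale (edgeR adjusted p = 0.0116; 0.161 without 30 min 2 and 0.0672 without 30 min 3). Klf6, a zinc finger factor of wound responses, was at 276, 264 and 264 CPM against 216, 224 and 235 CPM (log2 0.25 ± 0.07; edgeR adjusted p = 0.02; 0.0949 without 30 min 1, 0.111 without low 1 and 0.0631 without low 2). Ier2 and Fosl1, picked after their values were seen, fell by 0.44 ± 0.13 and 0.29 ± 0.09 on the log2 scale (edgeR adjusted p = 0.0414 and 0.0471). Ier2 kept its call only without low 2 (up to 0.184 in the others) and Fosl1 only without 30 min 3 (up to 0.217), and both lost it under DESeq2 (0.0936 and 0.116).

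Chaperones gave calls in both of their lists, to be read beside the 4.15% called over all tested genes. Of 20 cytosolic heat shock proteins none rose and 2 fell, with a median of 0.07. Hspa8, the constitutive Hsp70, was at 122, 98.5 and 95.8 CPM against 131, 141 and 157 CPM, and both groups lay below the control range of 202 to 219.7 CPM. Its change was -0.44 ± 0.09 (edgeR adjusted p = 0.00137), and it has near-identical copies. Cryab, a small heat shock protein of muscle, fell by 0.26 ± 0.06 on the log2 scale (edgeR adjusted p = 0.00357). Of 20 chaperones of the endoplasmic reticulum Hspa5, the Hsp70 of that compartment, alone rose (0.26 ± 0.07; edgeR adjusted p = 0.0139, 0.0582 to 0.0648 without 30 min 2, 30 min 3 or low 1) and none fell, with a median of 0.0022.

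Cell cycle, redox and glycolysis genes gave calls in each list, to be read beside the 4.15% called over all tested genes. Of 39 G2/M genes 3 fell (Hmgb2, Kif11 and Aurkb) and none rose, with a median of 0.06. Kif11, the mitotic kinesin Eg5, fell by 0.54 ± 0.12 on the log2 scale (edgeR adjusted p = 0.00182). Hmgb2, a chromatin protein, fell by 0.56 ± 0.09 (edgeR adjusted p = 7.6e-06) and Aurkb, a mitotic kinase, by 0.30 ± 0.09 (0.047). Aurkb lost its call without 30 min 1, 30 min 2, low 2 or low 3 (0.0559 to 0.380) and under DESeq2 (0.112), and Kif11 and Hmgb2 have near-identical copies. Cdt1, a licensing factor of DNA replication, was at 146, 134 and 135 CPM against 98.1, 94.8 and 114 CPM (log2 0.43 ± 0.10; edgeR adjusted p = 0.00462), and Rrm2, a subunit of ribonucleotide reductase, fell by 0.22 ± 0.06 on the log2 scale (edgeR adjusted p = 0.00853; 0.0566 without 30 min 1 and 0.0631 without 30 min 2). They were the called genes of 22 tested in G1/S and replication. Of 18 Nrf2, ferritin and redox genes 4 fell and 1 rose, with a median of -0.07. Mt1, a metallothionein, was at 318, 304 and 366 CPM against 509, 492 and 421 CPM (log2 -0.53 ± 0.07; edgeR adjusted p = 9.28e-08), and Nqo1, a quinone reductase, fell by 0.35 ± 0.06 on the log2 scale (edgeR adjusted p = 9.66e-05). Eno1, a glycolytic enolase with near-identical copies, was the only called gene of 18 in glycolysis and hypoxia and fell by 0.58 ± 0.08 on the log2 scale (edgeR adjusted p = 1.21e-06). Splicing factors gave no call among 24 (edgeR; 7 higher and 2 lower at an unadjusted p under 0.05; 0 or 1 call in the other fits), and aminoacyl-tRNA synthetases gave 1 among 20, Qars (log2 0.39 ± 0.11; edgeR adjusted p = 0.0338). Its call ended without 30 min 1, 30 min 2, low 2 or low 3 (0.0614 to 0.221) and under DESeq2 (0.0796). Eif4g1, the scaffold of cap-dependent initiation, alone rose among 30 translation factors (0.29 ± 0.06; edgeR adjusted p = 0.00219, and 0.0537 without low 1).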

How the data were processed

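Per the labels' protocols, BRB-seq libraries were made from total RNA of C2C12 cells, reading 15 bases in the barcode read and 45 in the transcript read. Per the submitters' processing notes, HISAT2 2.1.0, featureCounts 2.0.1 and DESeq2 1.28.1 were used with GRCm38, besides Trim Galore 0.6.6, cutadapt 2.6 and UMI-tools 1.0.1. Their settings are not given in the sources used here. As files, the authors deposited counts per gene, on which all tests rest. Their deposited normalized values, a signal equal to the counts divided by 1 factor per library (0.797 to 1.3), were not tested. Their deposited table named TPM equals CPM in 467226 of 467226 cells within 1e-06 and was used only for that check.

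The tests used edgeR 4.0.16 in R 4.3.3 (quasi-likelihood, TMM, filterByExpr, all 18 libraries in 1 fit, contrast 30 min minus low trypsin, Benjamini-Hochberg over 10075 genes, adjusted p under 0.05). The SE of a change is its size divided by the square root of F. An exact permutation test of 3 against 3 cannot go below p = 0.1 and was not used. The code was tested on simulated counts. Genes were named by rule: the 12 largest rises and 12 largest falls that passed the test, reached a mean of 10 CPM in the higher group and did not overlap (predicted genes and pseudogenes passed over), up to 4 called genes of smallest p per list over 35 lists, and 12 genes named in any case. The members and lists were chosen with earlier results of these data known. A gene has a near-identical copy where its transcript matches another gene at 95% identity or more over 100 nt within the last 500 nt, or over 500 nt anywhere (BLAST 2.17.0). Gene coordinates are GENCODE M21 (GRCm38) and promoters are from RefSeq. Alternatives were DESeq2 1.42.0, other scaling, filters, libraries and a replicate block, a correction for mRNA length, and each library left out. Leaving out pseudogenes and genes with copies was chosen after seeing the data.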

Additional observations from a re-analysis of the deposited data

How the results depend on the processing

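The 136 genes called higher and 282 called lower became 90 and 182 with DESeq2, and 88 and 182 of these were shared with edgeR. With pseudogenes and genes with a near-identical copy left out, 100 rose and 166 fell among 8149 genes tested, an alternative chosen after seeing the data. With 1 library left out, 84 to 121 genes rose and 192 to 245 fell. The number that rose was smallest without low trypsin replicate 1 (84), low trypsin replicate 2 (85) and 30 min replicate 1 (87). Over the settings with another scaling, filter, set of libraries or length correction, 112 to 148 rose and 241 to 310 fell. Genes that rose made up 28.9% to 37.8% of all calls over every setting. The deviations of same-numbered libraries correlated at -0.012, -0.022 and -0.030 across genes, and no library correlated best with its own number. Differently numbered libraries correlated at -0.007 to 0.030. Values this small cannot decide whether libraries of 1 lot number share a culture or batch. With the lot number as a replicate block, 135 genes rose and 273 fell. Of the 92 named genes that were called, 58 kept the call in each fit with 1 library left out, and none of the 95 named genes changed sign in any fit. In the fit of only the 6 compared libraries, Acat2, Adamts1, Atf3, Aurkb, Ccl2, Des, Hmgcs1, Klf6, Notch2, Qars and Tnnt2 lost their calls. A level near 3 counts limited what could be read for Depp1, Nkain2, Atf3 and Usp50.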

Other observations

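The genes in this section were picked after their values were seen, and their tests describe these libraries only. Single genes of growth factor and cytokine signalling outside the lists differed between the groups, in both directions. Ereg, a ligand of the EGF receptor family, was at 12.6, 15.2 and 13.2 CPM after 30 min, 30.4, 24.4 and 26.6 CPM in low trypsin and 23.7, 23.4 and 26.9 CPM in control. Here the 30 min libraries stood below both other groups (log2 -0.98 ± 0.21; edgeR adjusted p = 0.00178). Areg, a ligand of the same family, fell by 0.94 ± 0.25 on the log2 scale (edgeR adjusted p = 0.0197), and its call ended without 30 min 1, 30 min 3, low 1 or low 3 (0.0672 to 0.125) and under DESeq2 (0.0601). Pim3, a kinase induced by cytokines, was at 58.5, 51.9 and 64.3 CPM against 94.1, 126 and 117 CPM (log2 -0.95 ± 0.12; edgeR adjusted p = 2.66e-08). Socs1, an inhibitor of cytokine receptors, fell by 0.99 ± 0.23 on the log2 scale, and Epha2, an ephrin receptor, by 0.65 ± 0.13 (edgeR adjusted p = 0.00352 and 0.000503). Kif18b, a mitotic kinesin, was at 25.1, 28.8 and 29.0 CPM after 30 min and at 58.3, 56.3 and 58.9 CPM in low trypsin, with control at 22.5 to 28.9 CPM (log2 -1.06 ± 0.15; edgeR adjusted p = 1.02e-06). Clcf1, a cytokine ligand, and Map3k14, a kinase of the noncanonical NF-kB pathway, rose by 0.68 ± 0.18 and 0.77 ± 0.21 (edgeR adjusted p = 0.0185 and 0.0239). The call of Clcf1 ended without 30 min 3, low 1 or low 2 (0.0524 to 0.143), that of Map3k14 without 30 min 1, 30 min 2, low 1 or low 3 (0.0643 to 0.147), and both under DESeq2 (0.0542 and 0.0797). Also higher were 2 factors tied to the circadian clock. Tef, which activates clock output genes, was at 108, 82.8 and 78.2 CPM against 55.8, 52.5 and 64.5 CPM (log2 0.63 ± 0.12; edgeR adjusted p = 0.000517). Bhlhe41, a repressor of the clock, was at 142, 116 and 103 CPM against 74.7, 81.8 and 87.4 CPM (log2 0.56 ± 0.11; edgeR adjusted p = 0.000606). Snhg20, another small nucleolar RNA host that is in no list, rose by 0.88 ± 0.21 (edgeR adjusted p = 0.0067).

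Nuclear copies of mitochondrial genes and of ribosomal protein genes gave large changes in both directions. Gm28437 on chromosome 1, a copy of mt-Co3, was at 167, 357 and 178 CPM after 30 min and at 1463, 1591 and 1355 CPM in low trypsin, with control at 179 to 324 CPM. Gm13341 and Gm13340 lie side by side on chromosome 2 and copy mt-Co2 and mt-Co1. Gm13341 was at 224, 259 and 227 CPM against 523, 552 and 468 CPM, while Gm13340 was at 202, 213 and 201 CPM against 15.9, 29.8 and 39.7 CPM. The neighbours thus moved in opposite directions, by -1.11 ± 0.08 and 2.84 ± 0.15 on the log2 scale (edgeR adjusted p = 3.55e-16 and 6.58e-21). Rpsa-ps2 was at 2.51, 0.524 and 0.630 CPM against 56.8, 40.6 and 58.9 CPM, and at 0.943 to 1.47 CPM in control. Rps12-ps2 was at 43.4, 34.6 and 35.9 CPM against 3.49, 2.71 and 7.48 CPM. These copies share long near-identical stretches with their parent genes, and the way reads were divided between a copy and its parent is not given in the sources used here. Its part in these values was not tested.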
